A study of Arabidopsis thaliana with 8 samples.

Results

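The genes described here are 14 nuclear genes of Arabidopsis thaliana whose products work in photosynthesis, and their transcript levels were followed in 5-day-old seedlings mutant in AHA1 or in AHA2, each of which encodes a proton pump of the plasma membrane. None of the 14 passed the test in either mutant, and neither did any other of the 22746 probe sets tested (0%). For the 9 members with the brightest probe sets, changes of more than 1.54-fold in aha1 and of more than 1.49-fold in aha2 lay outside the 95% confidence intervals, taken gene by gene. The remaining 5 were measured less tightly, and their intervals reached 2.05-fold in aha1 and 2.105-fold in aha2. All these bounds are for quantile-normalized values and depend on that step. Without it the median SE over the 14 members was 0.24 in place of 0.18 on the log2 scale, in either mutant. The difference of RCA in aha1 was then 0.31 in place of 0.14. The members were taken by the first letters of their symbols (LHCA, LHCB, PSA, PSB, PET, NDH, PNSL, PNSB, ATPC, ATPD, RBCS, RCA, FNR, or FD before a digit, without PSBRP) from 13217 nuclear genes that had a probe set of their own. In the RefSeq gene table of assembly TAIR10.1, 77 nuclear symbols begin in these ways, so most of the family was not measured under a name here. Each of the 14 had 1 probe set, and 6 of 9 functional roles held a member. The photosystem I antenna, the cytochrome and plastocyanin step, and the ferredoxins with their reductase held none, and neither did the small subunit of Rubisco.

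Total RNA from whole seedlings was hybridised to 8 single-colour Affymetrix arrays, 1 per sample. All plants were of the Columbia (Col) background, 5 days old, grown in light on vertical plates of Murashige and Skoog medium. Wild type was measured on 2 arrays, aha1 on 3 (2 of allele aha1-6 and 1 of aha1-7) and aha2 on 3 (2 of allele aha2-4 and 1 of aha2-5). A string shared by the sample descriptions divides the arrays into a first set of 3, with 1 array of wild type, aha1-6 and aha2-4, and a second set of 5, which repeats these and adds aha1-7 and aha2-5. Nothing in the labels places the samples of a group in separate cultures, so the spread behind each p-value is that between these samples and may be technical. The transcripts of AHA1 and AHA2 themselves were not analysed here, and genotypes were taken from the labels.

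Oxygenic photosynthesis begins in photosystem II, where light taken up by antenna proteins drives the splitting of water. Electrons then pass through the cytochrome complex to photosystem I and on to ferredoxin, while protons gathered in the thylakoid lumen drive the chloroplast ATP synthase. The complexes are built from subunits of both genomes: the chloroplast genome encodes most of the reaction centre cores, and the nucleus encodes the antenna, many small subunits and the assembly factors. The nuclear genes are transcribed mainly in green tissue. In RNA from whole seedlings, fewer shoot cells and less RNA per cell cannot be told apart.

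Levels are given as normalized log2 intensity, and signals as the linear values deposited. On every array 9 members lay among the 300 brightest of 22746 probe sets: RCA, PSBY, LHCB4.1, ATPC1, LHCB4.2, PSAE-1, PSAN, PSB27 and PSBW. Their signals ran from 14192 to 57927, where array medians ran from 357 to 408. RCA was between rank 4 and rank 18, within the brightest 0.0791% of all probe sets. The 3 genes of the NADH dehydrogenase-like complex followed between ranks 843 and 2307, LHCB4.3 between 2238 and 4822, and ATPC2 between 10526 and 12722. Rank describes the brightness of a probe set and depends on its probes as well as on the transcript. By the median, the members also varied little after quantile normalization. After group and set were taken out, the residual SD had a median of 0.13 on the log2 scale over the 14 members. The median was 0.32 over all tested probe sets and 0.23 over the brighter 11373, most of them dimmer than the 9 members named above. Single members ran from 0.04 for PSB27 to 0.33 for NdhS. LHCB4.3 (0.31), NdhN (0.30) and NdhL (0.25) also lay above 0.23. The gap to all probe sets was smaller without quantile normalization. For aha1 against wild type the median SE was then 0.238 over the members and 0.292 over all tested probe sets. With quantile normalization these were 0.183 and 0.286. Signals of tissue markers are given here without a call of presence. The summed signal of 5 root genes (NAI2, PYK10, EXPA7, EXPA18 and NAI1, of 54 listed) was 38996 to 43532 in wild type, 36359 to 52708 in aha1 and 34311 to 44799 in aha2. The seed oil body gene OLEO3, the only measured gene of 31 listed for seeds, had signals of 49.1 to 98.8 on the 8 arrays. These were below every array median.

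Summed over the 14 members, the signal did not separate the groups. It was 0.906% and 0.986% of the signal of all non-control probe sets in wild type, 0.956% and 1.06% in aha1-6, 0.947% in aha1-7, 0.924% and 0.860% in aha2-4, and 1.105% in aha2-5, with the first set named first in each pair. Wild type had a mean of 0.946% ± 0.057 (SD, n = 2). The aha1 mutant averaged 0.988% ± 0.064 (SD, n = 3), and the aha2 mutant 0.963% ± 0.127 (SD, n = 3). The values of the groups overlapped, and both the highest and the lowest share belonged to aha2. After quantile normalization the means were 0.983%, 0.950% and 0.975%, so the order of the 3 groups was reversed by the scaling. Each mutant array was also compared with the wild type array of its own set. The median difference over the 14 members was -0.02 on both aha1-6 arrays, -0.02 and -0.05 on the aha2-4 arrays and -0.01 on the aha2-5 array. The aha1-7 array differed from these, at -0.22, with 12 of 14 members below wild type.

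**Figure D1:**
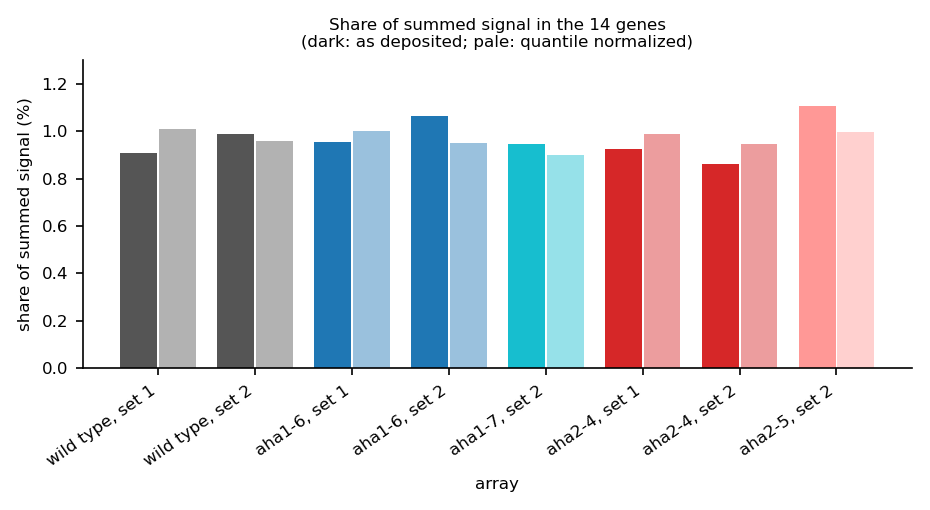
Percent of the summed signal of all non-control probe sets that came from the 14 nuclear photosynthesis genes, 1 pair of bars per array (dark: signal as deposited; pale: after quantile normalization). As deposited the shares run from 0.860% to 1.105%, both in aha2, and no group stands apart.

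The antenna of photosystem II was represented by the 3 genes of LHCB4, the protein also called CP29, a minor antenna protein that links the outer light-harvesting complexes to the core. LHCB4.1 (AT5G01530, chromosome 5, 208866 to 210548 in TAIR10.1) was at 15.36 and 15.22 in wild type, 15.28 and 15.12 in aha1-6, 15.10 in aha1-7, 15.16 and 15.08 in aha2-4, and 15.15 in aha2-5. All 3 aha2 arrays were below both wild type arrays, while aha1 and wild type overlapped. The fitted difference in aha2 was -0.14 (SE 0.16), smaller than its error. LHCB4.2 (AT3G08940, chromosome 3, 2717557 to 2718923) was at 14.70 and 14.88 in wild type, 14.72, 14.88 and 14.74 in aha1, and 14.80, 14.78 and 15.04 in aha2. Its groups overlapped. LHCB4.1 and LHCB4.2 are close paralogs, and how far their probe sets respond to each other's transcript was not examined. LHCB4.3 (AT2G40100, chromosome 2, 16745628 to 16747424), the third gene of the family, was at 11.30 and 11.09 in wild type, 11.38 and 11.22 in aha1-6, 10.49 in aha1-7, 11.53 and 11.60 in aha2-4, and 11.50 in aha2-5. All 3 aha2 arrays lay above every wild type and every aha1 array, and aha1-7 lay far below the rest. The fitted difference of aha2 from wild type was 0.39 (SE 0.28, 95% interval -0.29 to 1.07, limma adjusted p = 0.9998). Without the aha1-7 array, which widens the shared error, it was 0.37 (SE 0.13, 95% interval 0.01 to 0.72, limma adjusted p = 0.792). In that fit 1 of 14 members, LHCB4.3, was at an unadjusted p under 0.05, as were 1422 of all 22746 probe sets.

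Photosystem II itself was represented by PSBW and PSBY, a pair of small membrane subunits, and PSB27, a lumenal protein that takes part in the assembly and repair of the complex. PSBW (AT2G30570, chromosome 2, 13019028 to 13020311) was at 14.33 and 14.18 in wild type, 14.46 and 14.06 in aha1-6, 13.90 in aha1-7, 14.17 and 14.02 in aha2-4, and 14.08 in aha2-5. The aha2 arrays were below both wild type arrays by a narrow margin, and aha1 spanned the wild type values. PSBY (AT1G67740, chromosome 1, 25394031 to 25395249) was at 15.14 and 15.23 in wild type, 14.99, 15.14 and 14.87 in aha1, and 15.25, 15.13 and 15.18 in aha2. The lowest level was that of aha1-7, and the groups overlapped. PSB27 (AT1G03600, chromosome 1, 898480 to 899794) was at 14.83 and 14.58 in wild type, 14.65 and 14.51 in aha1-6, 14.42 in aha1-7, 14.87 and 14.66 in aha2-4, and 14.60 in aha2-5. Within each set, these normalized levels put aha1 below wild type and aha2 above it, and the groups overlapped. Wild type, aha1-6 and aha2-4 were all lower in the second set. As deposited, aha2-4 of the second set was below wild type of its set (23684 against 26590), and wild type and aha1-6 were higher in the second set.

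Photosystem I was represented by PSAE-1, a stromal subunit at the docking site of ferredoxin, and PSAN, a lumenal subunit involved in electron transfer from plastocyanin. PSAE-1 (AT4G28750, chromosome 4, 14202758 to 14204061) was at 15.06 and 14.84 in wild type, 15.02, 14.90 and 14.78 in aha1, and 14.79, 14.80 and 15.03 in aha2. The wild type arrays alone spanned most of the range of the 8 arrays. PSAN (AT5G64040, chromosome 5, 25628521 to 25629708) was at 14.59 on both wild type arrays, 14.67, 14.66 and 14.46 in aha1, and 14.66, 14.53 and 14.55 in aha2. It had the smallest range of the members, 0.21 over the 8 arrays, and its fitted differences from wild type were 0.03 (SE 0.17) in aha1 and 0.00 (SE 0.17) in aha2.

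The NADH dehydrogenase-like complex returns electrons from ferredoxin to the plastoquinone pool and so contributes to cyclic electron flow around photosystem I. Its nuclear members were NdhL, a membrane-anchored subunit, NdhN, a stromal subunit, and NdhS, which carries the ferredoxin-binding site. NdhN (AT5G58260, chromosome 5, 23560568 to 23562001) was at 12.57 and 12.31 in wild type, 12.21 and 12.37 in aha1-6, 11.56 in aha1-7, 12.50 on both aha2-4 arrays and 12.46 in aha2-5. The aha2 arrays were closely grouped, and all aha1 arrays lay below them, aha1-7 by far the most. NdhL (AT1G70760, chromosome 1, 26687202 to 26688384) was at 12.67 and 12.54 in wild type, 12.63 and 12.62 in aha1-6, 11.95 in aha1-7, and 12.60, 12.45 and 12.45 in aha2. Only the aha1-7 array departed from the rest. NdhS (AT4G23890, chromosome 4, 12420414 to 12421464) was at 12.80 and 12.22 in wild type, 12.79 and 12.18 in aha1-6, 11.90 in aha1-7, 12.40 and 12.76 in aha2-4, and 12.57 in aha2-5. The second set minus the first was -0.61 in aha1-6 and 0.36 in aha2-4, and wild type moved like aha1-6, so the difference of aha2-4 from wild type changed sign between sets (-0.39 and 0.54).

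The chloroplast ATP synthase was represented by both genes of its gamma subunit, the rotating shaft of the enzyme. ATPC1 (AT4G04640, chromosome 4, 2350498 to 2352025) was at 14.93 and 15.03 in wild type, 15.03 and 14.98 in aha1-6, 15.16 in aha1-7, 14.96 and 15.11 in aha2-4, and 14.90 in aha2-5. Here aha1-7 was the highest array, and the groups overlapped. ATPC2 (AT1G15700, chromosome 1, 5402569 to 5403818), the dimmest member and the only one outside the brighter 11373 probe sets, was at 8.70 and 8.85 in wild type, 8.66 and 8.58 in aha1-6, 8.13 in aha1-7, 8.49 and 8.53 in aha2-4, and 8.33 in aha2-5. In these normalized levels every mutant array was below both wild type arrays. As deposited, aha1-6 of the first set was above wild type of its set (430 against 422). The fitted differences of ATPC2 were -0.30 (SE 0.22, 95% interval -0.85 to 0.25) in aha1 and -0.31 (SE 0.22, 95% interval -0.86 to 0.24) in aha2. Both rest on the same wild type arrays, and in aha1 the difference was -0.15 (SE 0.16) without aha1-7. RCA (AT2G39730, chromosome 2, 16570746 to 16573692) encodes Rubisco activase, the chaperone that frees the carbon-fixing enzyme of inhibitory sugar phosphates. It was at 15.44 and 15.25 in wild type, 15.53 and 15.36 in aha1-6, 15.53 in aha1-7, 15.47 and 15.31 in aha2-4, and 15.57 in aha2-5. In these normalized levels each mutant array was above the wild type array of its set, by 0.03 to 0.32. As deposited, aha2-4 of the second set was below wild type of its set (35270 against 40199). The groups overlapped, and the fitted differences of 0.14 in aha1 and 0.12 in aha2 were smaller than their SE of 0.18.

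**Figure D2:**
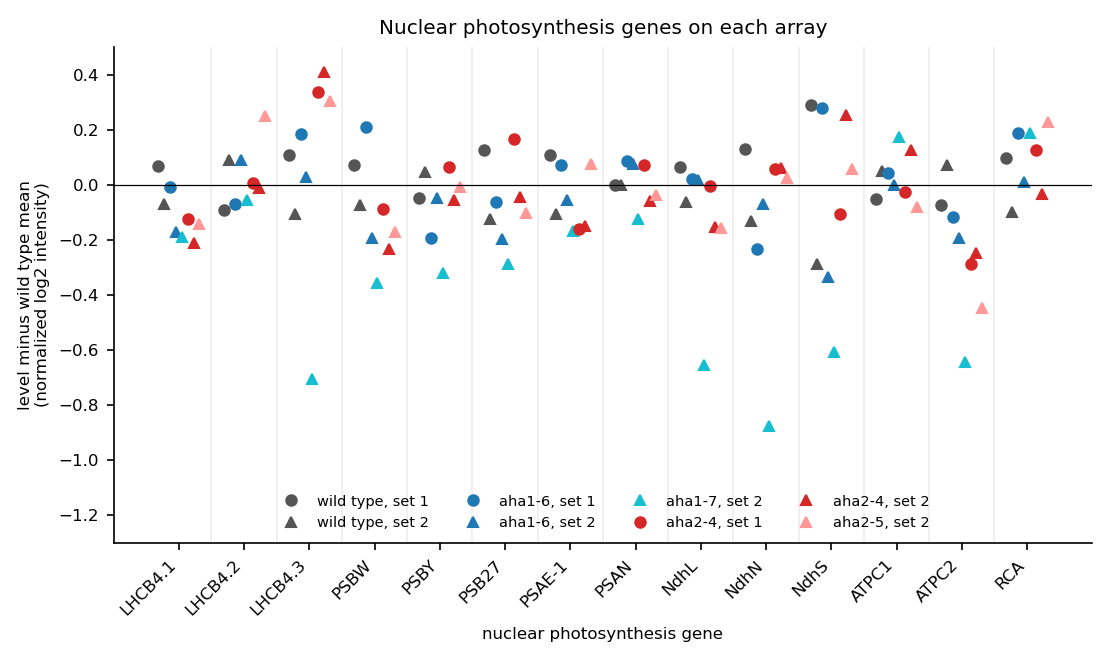
Level of each nuclear photosynthesis gene on each of the 8 arrays, as normalized log2 intensity minus the mean of the 2 wild type arrays (circles: first set; triangles: second set; colour: allele). Most points lie within 0.3 of wild type, the aha1-7 array is the lowest of the 8 for 10 members and lies farthest below for LHCB4.3, the 3 Ndh genes and ATPC2, and the aha2 arrays lie highest for LHCB4.3.

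In aha1, which addresses the transcripts that depend on the AHA1 pump, 11 members had a fitted difference below 0 and 3 above. The differences ran from -0.37 for NdhN (SE 0.27, 95% interval -1.03 to 0.30, a 0.776-fold level) to 0.14 for RCA, with a median of -0.11, against 0.00 over all tested probe sets. None passed the threshold of 0.05 (limma, Benjamini-Hochberg adjusted p from 0.937 to 0.990), where the share over all 22746 probe sets was 0%. At an unadjusted p under 0.05 there were also 0 of 14 members, against 5.01% of all probe sets. The median rested on 1 array: without aha1-7 it was 0.01, with 8 members above 0 and 6 below. With the dimmest 50% of probe sets and aha1-7 left out, 0 of 13 members were called, against 0.237% of 11373 probe sets. Group values did not overlap for 1 member, ATPC2, against 18.8% of all probe sets.

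In aha2, which addresses the AHA2 pump, the members divided evenly, 7 above 0 and 7 below, with a median of 0.00 (over all tested probe sets -0.01). With the trend on gene length removed from each array, 3 members were above 0 and 11 below, with a median of -0.08, and 1 of 14 (ATPC2) was at an unadjusted p under 0.05, against 4.16% of the named probe sets. The differences ran from -0.31 for ATPC2 to 0.39 for LHCB4.3, a 1.31-fold level. Called members numbered 0 of 14, against 0% of all probe sets (limma, every adjusted p 0.9998), and 0 of 14 were below an unadjusted p of 0.05, against 4.04%. With the dimmest 50% and aha1-7 left out 0 of 13 members were called, against 0.536% of probe sets. The values of aha2 and wild type did not overlap for 4 members, against 20.9% of all probe sets: LHCB4.3 was higher, and LHCB4.1, PSBW and ATPC2 were lower.

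Set directly against each other, the mutants also gave 0 of 14 members past the threshold, against 0% of all probe sets, and 0 of 14 at an unadjusted p under 0.05, against 10.6%. The median difference of aha1 from aha2 was -0.04, against 0.02 over all tested probe sets, with 7 members on each side of 0. The lowest values were those of LHCB4.3, at -0.51 (SE 0.25, 95% interval -1.12 to 0.09, limma adjusted p = 0.502), and NdhN, at -0.44 (SE 0.24, 95% interval -1.03 to 0.15, limma adjusted p = 0.525). These were also the 2 members whose values did not overlap between the mutants, against 16.6% of all probe sets. Without aha1-7 the difference was -0.26 (SE 0.13) for LHCB4.3 and -0.20 (SE 0.15) for NdhN. With the dimmest 50% and aha1-7 left out 0 of 13 members were called, against 3.02% of probe sets.

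**Figure D3:**
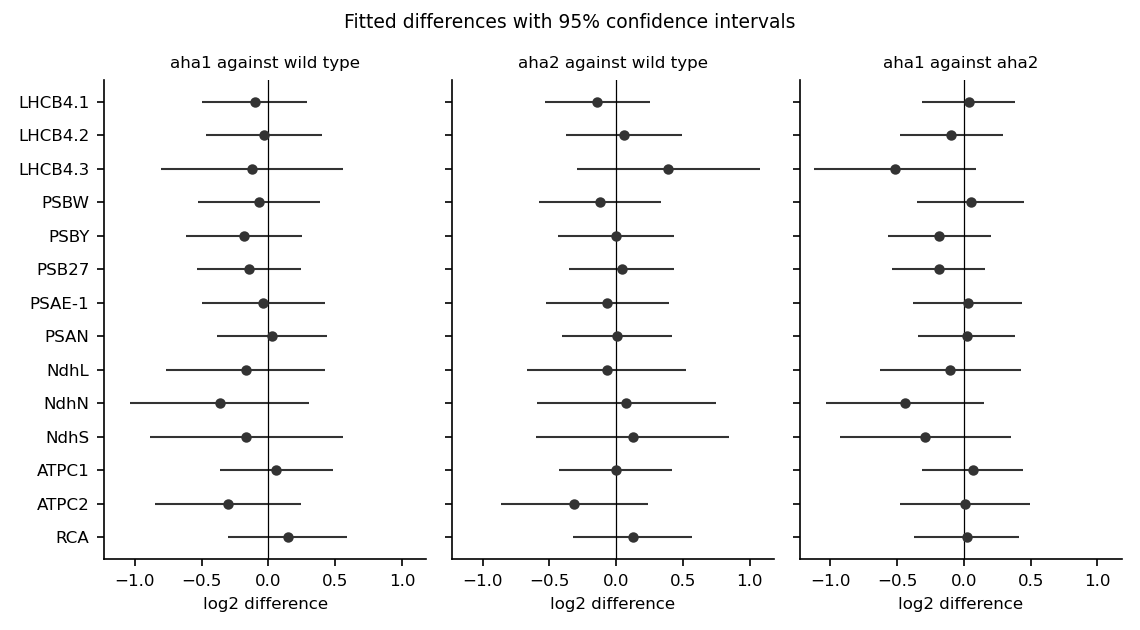
Fitted log2 differences of the 14 nuclear photosynthesis genes (points) with 95% confidence intervals (bars) for aha1 against wild type, aha2 against wild type and aha1 against aha2. Every interval includes 0. The widest intervals belong to NdhS, LHCB4.3 and NdhN, and the farthest bound is at -1.12 for LHCB4.3 in aha1 against aha2.

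The aha1-7 array stood apart from the other 7 over all probe sets. Its median correlation with them was 0.887 over the brighter probe sets, where the others had 0.959 to 0.971, and 1201 of these probe sets were over 2-fold away from the average of the rest, against 19 to 56 elsewhere. None of the members differed by more than 2-fold. On this array the deviation rose with gene length, counted along the chromosome in RefSeq, introns included (Spearman's rho 0.34 over 13286 named genes and 0.69 over the 5883 brighter ones, across genes, which are not independent replicates). Among the brighter genes the other arrays had weaker relations of either sign, with rho from -0.30 on an aha2-4 array to 0.28 on an aha1-6 array. The members are short genes: 13 of 14 were shorter than the median named gene of 2105 bases, and their median was 1309.5 bases. Their deviation on the aha1-7 array had a median of -0.27, and relative to the trend at their own lengths it had a median of 0.13, with 6 of 14 below the trend. LHCB4.3 was at -0.89 where genes of its length of 1797 bases were at -0.22, and NdhN was at -0.85 where the trend was -0.37. ATPC1 went the other way, at 0.16 against a trend of -0.34. RCA, the only member longer than the median named gene at 2947 bases, was at 0.11 where the trend was 0.23. Fitted as an allele of its own, aha1-7 differed from wild type at an unadjusted p under 0.05 for 4 of 14 members (ATPC2, NdhL, NdhN and LHCB4.3, all lower), against 21.6% of all probe sets, and the smallest adjusted p was 0.192 (limma). With a single array the allele and the array cannot be told apart.

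**Figure D4:**
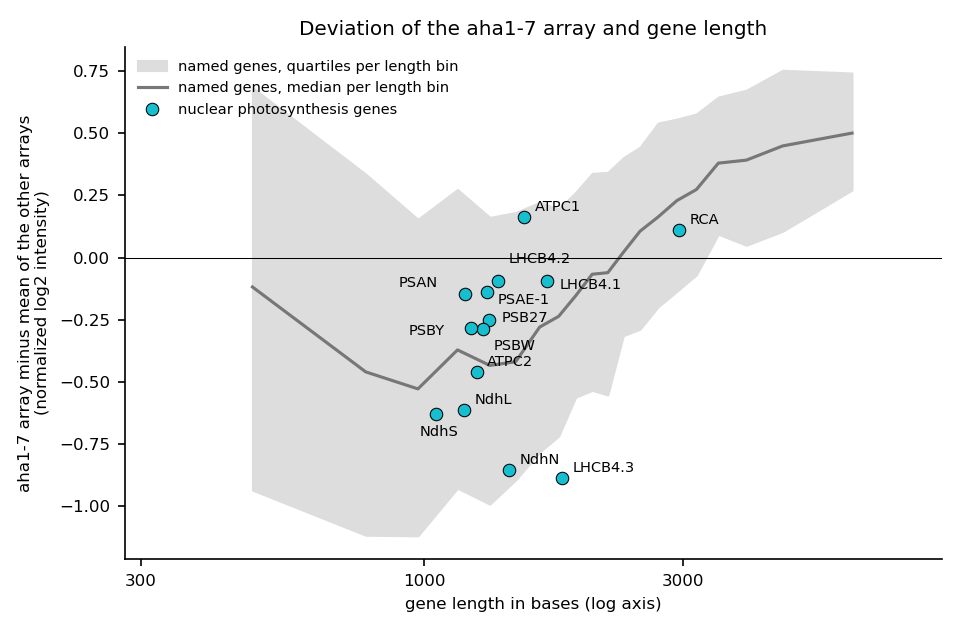
Deviation of the aha1-7 array from the mean of the other arrays (normalized log2 intensity) against gene length in bases (log axis). The line and band give the median and quartiles of named genes in bins of length, and the points are the 14 nuclear photosynthesis genes, of which LHCB4.3 and NdhN lie farthest below the line and ATPC1 farthest above it.

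Between the sets, 12 members had a fitted difference below 0 in the second set and 2 above, with a median of -0.11, against 0.01 over all tested probe sets. This direction depended on the scaling: without quantile normalization, or with each array scaled to its 75th percentile, the median was above 0, at 0.025 and 0.0232. Members past the threshold numbered 0 of 14, against 0% of all probe sets (limma, adjusted p from 0.616 to 0.991), and 0 of 14 were at an unadjusted p under 0.05, against 9.15%. With the dimmest 50% and aha1-7 left out 0 of 13 members were called, against 4.41% of probe sets. Wild type, aha1-6 and aha2-4 have 1 array in each set. In normalized levels 5 members moved the same way in all 3 (NdhL, RCA, PSB27, PSBW and LHCB4.1, each lower in the second set), against 38.2% of all probe sets. Normalized PSB27 was lower by 0.25 in wild type, 0.13 in aha1-6 and 0.21 in aha2-4. Its fitted differences from wild type were -0.14 in aha1 and 0.04 in aha2. As deposited, RCA, PSB27 and LHCB4.1 were higher in the second set in wild type and aha1-6, and lower in aha2-4. For RCA these signals went from 37054 to 40199, from 43251 to 50542 and from 40667 to 35270. Deposited PSBW was higher only in wild type, and NdhL only in aha1-6.

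The nuclear members were set beside 37 chloroplast-encoded genes of the same complexes: 15 of photosystem II, 5 of photosystem I, 10 of the NADH dehydrogenase-like complex, 6 of the ATP synthase, and rbcL, the large subunit of Rubisco. In aha2 the chloroplast-encoded genes had a median difference from wild type of -0.34, with 3 of 37 above 0, where the nuclear members had 0.00. For photosystem I the medians were -0.70 over the chloroplast-encoded genes and -0.03 over PSAE-1 and PSAN, and for photosystem II they were -0.34 and 0.00. In aha1 the chloroplast-encoded median was 0.00, with 18 of 37 above 0, and the nuclear median -0.11. Array by array, the chloroplast-encoded median was below wild type of the set by 0.32 and 0.45 in aha2-4 and by 0.25 in aha2-5, against 0.02, 0.05 and 0.01 for the nuclear members. The aha1-6 arrays had 0.02 (first set) and -0.18 (second set), the latter near aha2-5. On the aha1-7 array the genomes went in opposite directions, 0.25 and -0.22. The chloroplast-encoded genes also differed between the sets, with a median of -0.60. None of the 37 was called, as none of all 22746 probe sets was (0%). Transcripts of the chloroplast genome are mostly not polyadenylated, and the difference between the genomes was not tested.

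**Figure D5:**
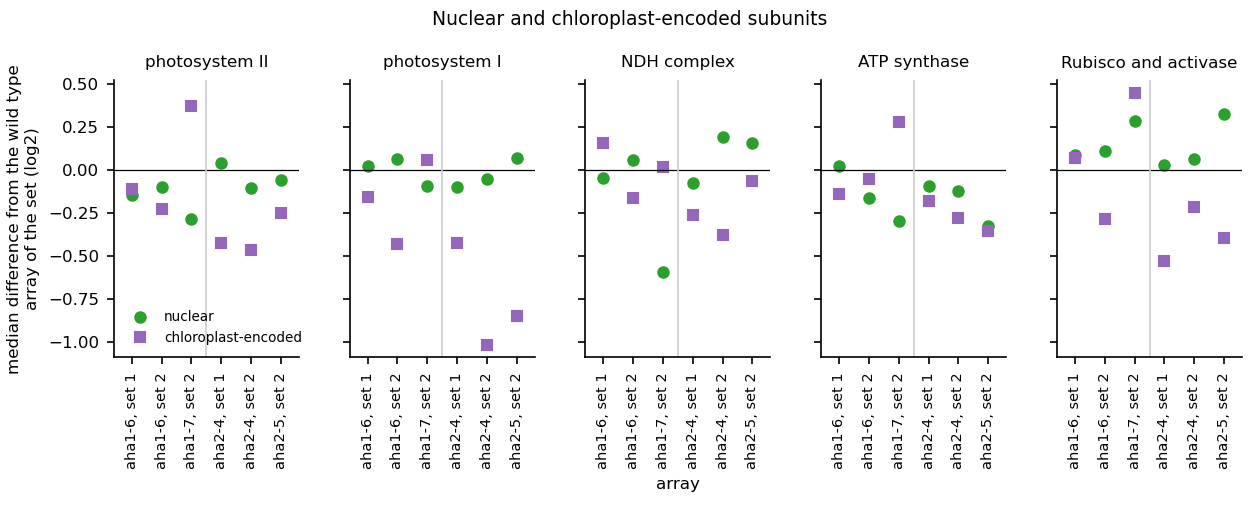
Median difference (log2) of each mutant array from wild type within the set, for the nuclear genes (circles) and the chloroplast-encoded genes (squares) of 5 complexes. On the aha2 arrays the squares lie below 0 in every complex, reaching -1.02 for photosystem I, and the circles lie nearer to 0, except in the NDH complex on the aha2-5 array.

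Other listed nuclear genes of photosynthesis and chloroplast development held no called gene in either mutant, against 0% of all probe sets. Chlorophyll synthesis was covered by 10 of 35 listed genes, of which 7 were above 0 in aha1 and 2 in aha2, with medians of 0.10 (-0.01 without aha1-7) and -0.05. Its gene with the smallest p in aha1 was PORB, a light-dependent protochlorophyllide reductase, whose level was 13.23 ± 0.29 (SD, n = 2) in wild type but 12.47 ± 0.22 (SD, n = 3) in the aha1 arrays, a log2 difference of -0.77 (SE 0.23, limma adjusted p = 0.877). HEMA3, a glutamyl-tRNA reductase gene, was at 4.49 ± 1.57 (SD, n = 3) in aha1 against 6.14 ± 0.25 (SD, n = 2). Its log2 difference was -1.87 (SE 0.63, limma adjusted p = 0.931). Both means are dim, below the lowest level of ATPC2, the dimmest member (8.13), and the aha1 arrays were widely spread. HEMA2, of the same family, was at 8.95 ± 0.26 (SD, n = 3) in aha2 against 8.49 ± 0.08 (SD, n = 2), with limma adjusted p = 0.9998. Of the Calvin cycle 2 of 26 listed genes were measured: SBPASE had log2 differences of -0.14 in aha1 and 0.00 in aha2, and PRK of -0.01 and 0.03, all smaller than their errors. HPR, the peroxisomal hydroxypyruvate reductase of photorespiration and the only measured gene of 28 listed, was at -0.06 and -0.01. Genes of photosystem assembly and regulation, 9 of 55 listed, had a median difference of -0.10 in aha1 and of -0.01 in aha2. The light and plastid regulators HYH and GI, 2 of 39, had medians of -0.07 in aha1 (0.05 without aha1-7) and 0.01 in aha2. The 2 genes went in opposite directions: HYH had -0.28 in aha1 and -0.09 in aha2, and GI 0.13 and 0.11. All 4 were smaller than their errors. Markers of the shoot epidermis and young leaf, 8 of 43 listed, had medians of -0.18 in aha1 (-0.04 without aha1-7) and -0.08 in aha2. The 5 root genes had a median of -0.26 in aha1 (-0.11 without aha1-7) and of -0.02 in aha2. How far the makeup of the seedlings bears on the members was not tested.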

How the data were processed

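The authors deposited 1 linear intensity for each of 22810 probe sets, 64 of them array controls. Per the submitters' processing notes the software was Affymetrix Expression Console 1.1. The probe summarisation method was not given in the sources used here, and each array had a 2% trimmed mean of 1000.1 signal units. Values were taken as log2(value + 1), quantile normalized, and 22746 non-control probe sets were fitted in R 4.3.3 by limma 3.58.1 (lmFit, then eBayes, with group and set as terms, 8 arrays, 4 residual degrees of freedom), with Benjamini-Hochberg adjustment over all of them at 0.05. Differences are on the log2(value + 1) scale. Precision is limited by the number of arrays.

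Names came from the platform annotation, updated through RefSeq (TAIR10.1): 13513 had 1 gene, 503 several and 8730 none, and 13436 of the first matched RefSeq. Summaries were made with Python 3.11.15, pandas 2.3.3 and scipy 1.17.1, and the fit was tested on simulated data. The members and all lists were chosen with earlier results of these data known. THO1 and FDH, which entered the lists only through older symbols, were left out by identity after their values were seen. Values on every array are given for the 2 brightest and the dimmest member of each role and the 3 with the smallest p in each direction of a comparison, and for other lists the 2 genes with the smallest p in each mutant could be named. Alternatives covered scaling, pseudocount, dim probe sets, the set term, gene length, alleles and each array left out.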

Additional observations from a re-analysis of the deposited data

Results flagged for a closer look

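After quantile normalization PSB27, the photosystem II assembly factor, differed between the mutants in direction. On all 3 aha1 arrays it was below wild type of the same set (-0.19, -0.07 and -0.16 on the log2 scale), and on all 3 aha2 arrays it was above (0.04, 0.08 and 0.02). The fitted difference of aha1 from aha2 was -0.19 (SE 0.14, 95% interval -0.53 to 0.16), which did not pass (limma, adjusted p = 0.612). The fitted difference of aha2 from wild type was 0.04 (SE 0.16). All arrays of a set share 1 wild type array in these differences. As deposited, PSB27 on the aha2-4 array of the second set was below wild type of its set (23684 against 26590). PSB27 is 1 of 14 members, and the share of all probe sets with this pattern was not counted.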

How the results depend on the processing

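In 1000 member differences recomputed under the alternatives, 0 passed the threshold, 123 had another sign and 52 moved by more than 1 SE. Those of the first set alone could not pass, since 0 residual degrees of freedom gave no p-value. With the dimmest 50% of probe sets left out, 3 probe sets were called in aha2 against wild type, 20 in aha1 against aha2 and 3 between sets, and with aha1-7 left out as well 27 in aha1 against wild type, 61, 344 and 501, none of them a member. The members' median in aha1 against wild type, -0.11, became 0.0091 with the dimmest 50% and aha1-7 left out, -0.022 in the first set alone, -0.013 with the trend on gene length removed, 0.008 for aha1-6 alone and -0.21 for aha1-7 alone. With each array left out in turn it ran from -0.1556 to 0.008, the latter without aha1-7; the ranges were -0.01 to 0.01 in aha2 against wild type, -0.11 to 0.00 in aha1 against aha2 and -0.18 to -0.08 between sets. With the length trend removed, the median of aha1 against aha2 was 0.11 in place of -0.04, and that of aha2 against wild type -0.08 in place of 0.00. Between sets it was 0.0232 with 75th percentile scaling and 0.025 without quantile normalization. Over named probe sets only, the members' share of signal was 2.16% in wild type, 2.2955% in aha1 and 2.22% in aha2. The cause of these shifts was not tested. Each member has 1 probe set, so averaging probe sets of a gene gave the same values. The set served as the block because the labels give no replicate numbers. It was used in every fit that holds both sets, except the fit with no set block. With no set block the medians were -0.14, 0.00 and -0.04 (aha1 and aha2 against wild type, and aha1 against aha2), and 0 probe sets were called.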
